A study of Rattus norvegicus with 11 samples.

Results

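Cell proliferation genes were followed in the RNA of white blood cells (WBCs) of rats with collagen-induced arthritis (CIA), a model in which rats are immunized with type II collagen. The set was named as 10 genes, Mki67, Top2a, Ccnb1, Ccnb2, Cdk1, Tyms, Rrm2, Mcm5, Birc5 and Pcna, and was chosen by name, not by measured values. Earlier results of these data were known when the set was chosen. A row with the gene's symbol was found for 9 of the 10 among the 32623 genes of the deposited table. Ccnb2 was not analysed here, and a row described as a cyclin B2-like pseudogene was not put in its place. The study compared 11 samples in 3 groups. Control samples came from 3 healthy Wistar rats. Nampt++ samples (n = 4) were taken from 4 CIA rats at about day 8, when Nampt expression was high by the authors' PCR, and Nampt+ samples (n = 4) came from the same 4 rats at about day 14. The days and the identity of the rats are those of the study's methods. The CIA rats had received collagen in incomplete Freund's adjuvant with a boost on day 7. All rats were male, and peripheral WBCs were sampled after lysis of red blood cells. The labels' extraction protocol mentions retinas, which neither the sample sources nor the study's methods do.

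Blood is mostly made of cells that have left the cell cycle, and proliferation genes are read there mainly from the few cells that are still dividing, such as activated lymphocytes, plasmablasts and released precursors. The genes of the set act at different points of the cycle. Pcna is the sliding clamp of DNA polymerase, Mcm5 is a subunit of the replicative helicase, and Rrm2 and Tyms supply deoxynucleotides. Cdk1, Ccnb1 and Ccnb2 form the kinase that starts mitosis, Top2a untangles chromosomes, Birc5 (survivin) belongs to the chromosomal passenger complex, and Mki67 coats mitotic chromosomes. S phase genes are known to be switched on by E2F factors, and mitotic genes through CCAAT boxes and CHR elements (cell cycle genes homology region).

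These elements were searched for in RefSeq promoter windows of GRCr8, which 9 of the 10 genes had (no entry for Rrm2). The bases before the annotated start are shown for 4 mitotic genes and 2 S phase genes, 5′ to 3′ on the strand of the gene, since they hold most of the motifs described here. Capitals mark motifs on either strand, and adjoining or overlapping motifs run together. A CHR element was read as the letters TTTGAA. The form TTCGAA was counted with it. A CCAAT box was read as its 5 letters. An E2F site was read as TTTGGCGC, TTTCCCGC, TTTGCCGC or TTTCGCGC.
Mki67, GRCr8 chr1:199952594-199952753, minus strand: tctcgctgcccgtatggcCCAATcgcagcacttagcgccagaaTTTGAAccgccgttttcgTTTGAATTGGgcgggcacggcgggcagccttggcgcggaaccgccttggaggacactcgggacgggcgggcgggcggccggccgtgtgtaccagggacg
Top2a, GRCr8 chr10:84473094-84473253, minus strand: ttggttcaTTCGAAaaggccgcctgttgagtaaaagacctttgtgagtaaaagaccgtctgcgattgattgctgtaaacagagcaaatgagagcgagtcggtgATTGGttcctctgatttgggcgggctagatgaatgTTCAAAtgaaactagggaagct
Ccnb1, GRCr8 chr2:33655226-33655385, minus strand: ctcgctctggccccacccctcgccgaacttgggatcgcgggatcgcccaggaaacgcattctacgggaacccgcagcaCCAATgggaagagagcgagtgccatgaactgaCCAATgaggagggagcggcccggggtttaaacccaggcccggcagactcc
Cdk1, GRCr8 chr20:19265133-19265292, plus strand: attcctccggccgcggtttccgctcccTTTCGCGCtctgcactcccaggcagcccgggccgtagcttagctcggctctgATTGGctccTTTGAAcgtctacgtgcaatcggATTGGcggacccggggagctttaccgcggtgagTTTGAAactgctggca
Tyms, GRCr8 chr9:120776084-120776243, minus strand: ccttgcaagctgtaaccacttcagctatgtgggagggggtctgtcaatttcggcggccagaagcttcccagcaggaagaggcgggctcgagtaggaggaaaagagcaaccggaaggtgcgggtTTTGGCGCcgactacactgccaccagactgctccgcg
Mcm5, GRCr8 chr19:13488593-13488812, plus strand: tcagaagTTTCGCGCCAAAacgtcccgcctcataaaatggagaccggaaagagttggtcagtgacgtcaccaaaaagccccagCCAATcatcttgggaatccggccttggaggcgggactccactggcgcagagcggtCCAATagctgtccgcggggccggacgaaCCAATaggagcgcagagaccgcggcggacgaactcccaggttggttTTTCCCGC
In the 250 bases before the start, a CHR element was found in 5 of 9 promoters, a CCAAT box in 8 and an E2F site in 3. Of all 33469 promoters in the table, 17.4% held a CHR element, 34.0% a CCAAT box and 1.73% an E2F site in this stretch. The 3 promoters with an E2F site were those of Cdk1, Tyms and Mcm5. The Mcm5 sites lay at positions -213, -209 and -8 from the start, and the first pair overlapped. The Tyms site lay at -37. The CHR elements of Cdk1 lay at -72 and -16, with CCAAT boxes at -210, -81 and -49. A match of letters is a description and does not show that a factor bound there.

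The depth was similar in all libraries, with 65340027 to 85819418 counts per sample. The share of counts from haemoglobin genes was 16.2% to 30.9% in controls, 6.84% to 37.3% in Nampt++ samples and 14.8% to 42.8% in Nampt+ samples. Rat 2 at Nampt+ status had the largest share and also had the lowest summed FPKM of 8 T cell markers (287, against 439 to 1072 in the other 10 samples). The Nampt++ sample of rat 1 had the highest summed FPKM of 5 mature neutrophil markers (39992, against 2055 to 15252). Summed T cell markers ranged from 439 to 1072 FPKM in controls, from 536 to 874 in Nampt++ and from 287 to 951 in Nampt+ samples. Markers of progenitors (5 genes) summed to 9.83 to 12.8 FPKM in controls, 6.53 to 16.4 in Nampt++ and 6.59 to 19.4 in Nampt+ samples. Those of plasmablasts and plasma cells (7 genes) summed to 134 to 342, 224 to 371 and 196 to 380 FPKM. B cell markers (4 genes) summed to 127 to 634, 199 to 273 and 146 to 307 FPKM. No marker found in the table was at 0 in every sample, those of lymphocytes, monocytes and neutrophils included. Some were close to 0 throughout, with at most 0.042 FPKM for Ctsg, 0.096 FPKM for Cd34 and 0.246 FPKM for Mpo. In bulk RNA, fewer cells of a type and less RNA per cell cannot be told apart.

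Pcna stood far above the other genes, and the mitotic genes other than Birc5 were close to or under the lower limit for testing. The mean over all 11 samples was 143 FPKM for Pcna, 5.42 for Mcm5, 4.54 for Rrm2, 4.49 for Birc5, 1.42 for Ccnb1, 1.41 for Mki67, 0.928 for Tyms, 0.909 for Cdk1 and 0.901 for Top2a. FPKM is scaled by gene length, so these levels can be set side by side. Pcna exceeded Mcm5, Birc5 exceeded Ccnb1 and Mki67 exceeded Tyms in 11 of 11 samples each, and Mcm5 exceeded Rrm2 in 10 of 11. Neighbours that did not keep their order were Rrm2 and Birc5 (Rrm2 higher in 2 of 11 samples), Ccnb1 and Mki67 (5 of 11), Tyms and Cdk1 (5 of 11) and Cdk1 and Top2a (6 of 11). Of the genes with a mean of at least 1 FPKM, 95.4% lay below Pcna and 6.42% below Mki67. How reads shared by near-identical copies were counted is not known, and RefSeq lists pseudogenes of Pcna and Cdk1.

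Among the S phase genes, Pcna (ENSRNOG00000021264, chr3:124880698-124884570 as deposited, build not given in the sources used here) gave 146, 135 and 111 FPKM in control rats 1 to 3. It gave 161, 93.4, 186 and 148 FPKM in Nampt++ samples of rats 1 to 4, and 106, 136, 183 and 174 FPKM in Nampt+ samples of the same rats. The groups overlapped throughout, and the sample of rat 2 was the lowest of all at Nampt++ status. Group means were 130.2 ± 17.9 FPKM (SD, n = 3), 147 ± 39.0 FPKM (SD, n = 4) and 149.7 ± 35.6 FPKM (SD, n = 4) in Control, Nampt++ and Nampt+ samples. Mcm5 (ENSRNOG00000014336, chr19:14523554-14561278) gave 5.22, 5.02 and 5.45 FPKM in controls, the narrowest range of the 9 genes as a fold of highest over lowest. In Nampt++ samples its values were 3.33, 5.04, 5.68 and 7.80 FPKM, and in Nampt+ samples 5.58, 2.85, 8.70 and 4.95 FPKM. The CIA samples lay on both sides of the controls, with the lowest value in the Nampt+ sample of rat 2 and the highest in that of rat 3. The means were 5.23 ± 0.215 FPKM (SD, n = 3), 5.46 ± 1.85 FPKM (SD, n = 4) and 5.52 ± 2.42 FPKM (SD, n = 4).

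Tyms (ENSRNOG00000037225, chr9:121918947-121931564), thymidylate synthase, gave 0.972, 0.670 and 0.635 FPKM in controls, 0.561, 1.34, 1.01 and 1.20 in Nampt++ and 1.25, 0.878, 0.816 and 0.886 in Nampt+ samples. Its lowest value over all samples was in rat 1 at Nampt++ status, and within the Nampt+ group rat 1 stood above the other 3. Means were 0.759 ± 0.185 FPKM (SD, n = 3), 1.03 ± 0.339 FPKM (SD, n = 4) and 0.957 ± 0.196 FPKM (SD, n = 4), and the groups overlapped.

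Among the mitotic genes, Mki67 (ENSRNOG00000028137, chr1:207993895-208020454) gave 1.62, 1.07 and 1.50 FPKM in controls, 0.863, 1.37, 1.19 and 1.79 in Nampt++ and 1.74, 1.44, 1.34 and 1.56 in Nampt+ samples. Both the lowest and the highest of the 11 values were Nampt++ samples, those of rats 1 and 4. Means were 1.39 ± 0.290 FPKM (SD, n = 3), 1.304 ± 0.386 FPKM (SD, n = 4) and 1.52 ± 0.175 FPKM (SD, n = 4). Ccnb1 (ENSRNOG00000058539, chr2:30783915-30791221), cyclin B1, gave 1.41, 0.799 and 1.88 FPKM in controls, 1.29, 1.44, 0.815 and 1.29 in Nampt++ and 2.89, 0.720, 1.53 and 1.56 in Nampt+ samples. The Nampt+ group held both extremes, with rat 1 highest and rat 2 lowest. The means were 1.36 ± 0.544 FPKM (SD, n = 3), 1.21 ± 0.272 FPKM (SD, n = 4) and 1.67 ± 0.898 FPKM (SD, n = 4).

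Cdk1 (ENSRNOG00000000632, chr20:20576377-20591509) gave 1.12, 1.10 and 0.580 FPKM in controls, 0.582, 1.03, 0.953 and 1.24 in Nampt++ and 1.16, 0.178, 1.09 and 0.971 in Nampt+ samples. The low value of rat 2 at Nampt+ status rested on 19 counts (exact 95% Poisson interval 11.4 to 29.7, counting error only), against 65 to 139 counts in the other samples. Top2a (ENSRNOG00000053047, chr10:86901007-86932154) gave 1.09, 0.664 and 1.11 FPKM in controls, 0.688, 1.03, 0.858 and 1.10 in Nampt++ and 1.51, 0.262, 0.822 and 0.776 in Nampt+ samples. As for Ccnb1, rat 1 was highest and rat 2 lowest at Nampt+ status, with 608 and 108 counts. Birc5 (ENSRNOG00000050819, chr10:106856097-106864413) gave 4.24, 3.49 and 5.40 FPKM in controls, 3.97, 5.64, 5.49 and 4.57 in Nampt++ and 4.03, 4.53, 5.41 and 2.56 in Nampt+ samples. It was lowest in rat 4 at Nampt+ status, and the groups overlapped. A miRNA gene lies within the Birc5 locus on the opposite strand.

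The Nampt+ sample of rat 2 was the lowest of the 11 samples for 4 of 9 genes (Mcm5, Ccnb1, Cdk1 and Top2a). It was still the lowest for 2 of them (Cdk1 and Top2a) when counts were scaled to the reads outside the haemoglobin genes, and under that scaling it was the highest of the 11 for 2 others (Mki67 and Pcna). This was the sample with a haemoglobin share of 42.8% and the lowest T cell marker sum. The part of either in these low values was not tested. Of the genes averaging at least 1 FPKM in the CIA samples, 21.4% were higher at Nampt+ than at Nampt++ status in rat 2. How many of all genes were lowest in this sample was not counted, so the 4 of 9 cannot be read as particular to the set.

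**Figure D1:**
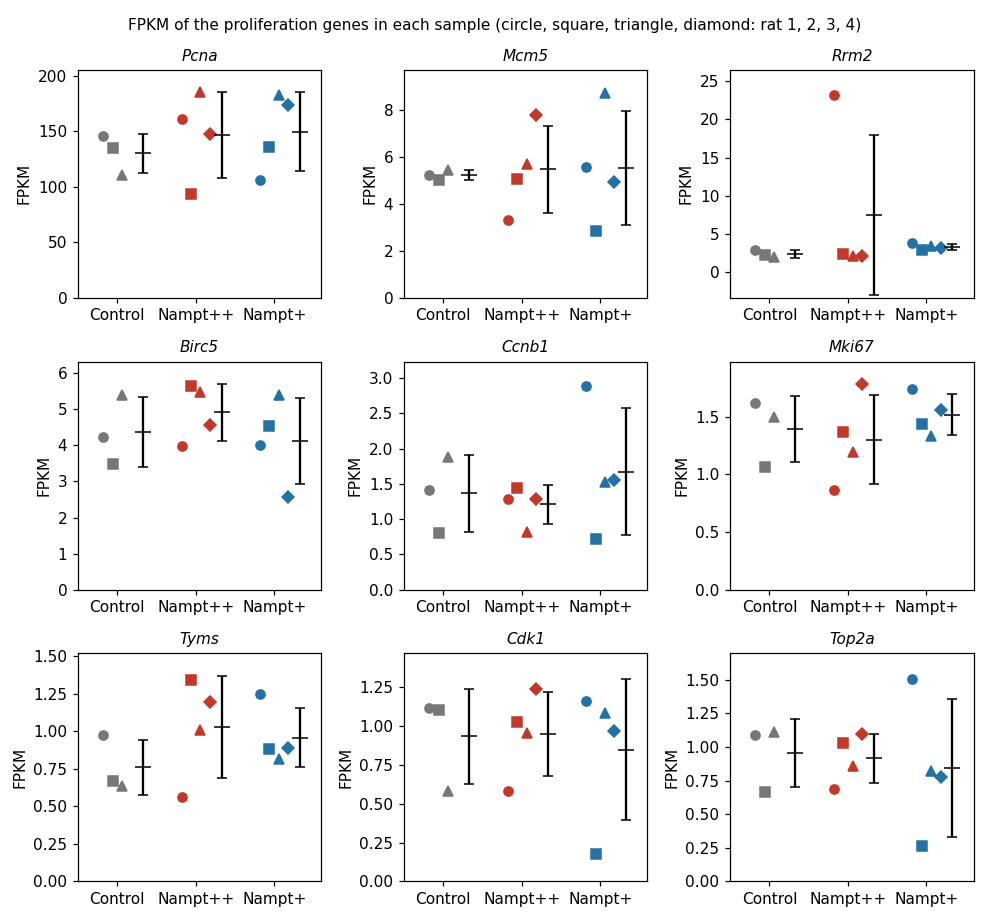
FPKM of the 9 genes found (1 panel each, linear axes) in every Control, Nampt++ and Nampt+ sample, with symbols for rat number and black bars for the mean ± SD (n = 3, 4 and 4; control rats are other animals). The groups overlap for each gene, and Rrm2 in the Nampt++ sample of rat 1 (23.3 FPKM) stands apart from the other 10 samples (1.92 to 3.75 FPKM).

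Rrm2 (ENSRNOG00000054286, chr6:43884678-43889515), the small subunit of ribonucleotide reductase, was set by 1 library. Controls gave 2.88, 2.22 and 1.92 FPKM, Nampt++ samples 23.3, 2.31, 2.14 and 2.13 FPKM and Nampt+ samples 3.75, 2.84, 3.34 and 3.12 FPKM. The Nampt++ sample of rat 1 held 2128 counts, 6.20 times the FPKM of the next highest sample, and this gave the Nampt++ group a mean of 7.46 ± 10.5 FPKM (SD, n = 4) against 2.34 ± 0.490 FPKM (SD, n = 3) in controls and 3.26 ± 0.385 FPKM (SD, n = 4) in Nampt+ samples. Without this sample, all 4 Nampt+ samples lay above the remaining 3 Nampt++ samples (2.20 ± 0.102 FPKM, SD, n = 3), a difference of 0.41 in log2(FPKM + 1) with an exact permutation p of 0.0286, the smallest that design can give. The sample was left out after its value was seen, and that test ignored the pairing and kept rat 1 at Nampt+ status. With rat 1 left out at both stages, the mean within-rat difference was 0.36 (exact sign-flip permutation p = 0.25). How many of all genes separate under the same removal was not counted. Without the Nampt++ sample of rat 1, Rrm2 was lower, not higher, in Nampt++ samples than in controls, by -0.05 in log2(FPKM + 1) (exact permutation p = 0.800, where 0.1 is the smallest possible). The direction of both Rrm2 comparisons with Nampt++ thus turned on 1 sample.

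A second row, LOC100359539 (ENSRNOG00000008450, chr19:25391700-25394229 as deposited), is described as a ribonucleotide reductase M2 polypeptide and is named Rrm2l1 in RefSeq. It gave 2.14, 1.46 and 1.13 FPKM in controls, 19.1, 1.43, 1.57 and 1.21 FPKM in Nampt++ samples, and 1.57, 1.10, 1.61 and 1.85 FPKM in Nampt+ samples. The same library stood apart here, 8.90 times above the next. Reads of near-identical copies can be divided between their rows, so that the level of Rrm2 on its own is uncertain. Without that sample this row did not separate the groups, with a mean of 1.53 ± 0.316 FPKM (SD, n = 4) in Nampt+ and 1.40 ± 0.185 FPKM (SD, n = 3) in Nampt++ samples (exact permutation p = 0.543). Rrm1, which encodes the large subunit of the enzyme, gave 11.3 FPKM in the Nampt++ sample of rat 1, within the range of the other samples (8.22 to 21.0). The same sample was the lowest of all for Mki67 and Tyms. Of 11242 genes with a mean of at least 1 FPKM, 7 were highest in this library by at least the fold of Rrm2. They were AABR07016572, Bik, Tgm1, LOC100359539, Mrps6, Ffar2 and Rrm2, named after their values were seen. Its sum of mature neutrophil markers was the highest, and its haemoglobin share the lowest (6.84%). The part of these in the value of Rrm2 was not tested.

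**Figure D2:**
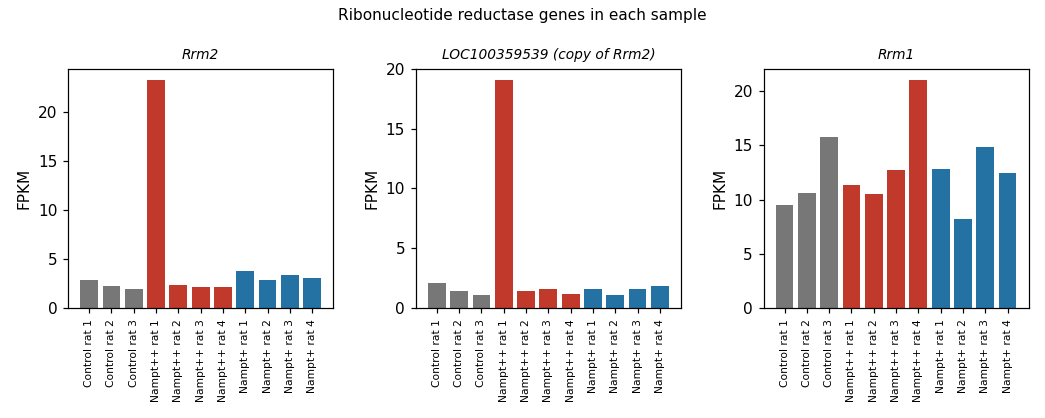
FPKM of Rrm2, its copy LOC100359539 and Rrm1 as bars, 1 per sample (grey Control, red Nampt++, blue Nampt+, linear axes from 0). The first Nampt++ bar is 23.3 FPKM for Rrm2 and 19.1 FPKM for the copy, while Rrm1 is at 11.3 FPKM in that sample.

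To ask whether the genes differed between stages of CIA, Nampt+ samples were compared with Nampt++ samples. No gene of the set was called. A gene counted as called when its mean FPKM in the first group was more than 2 times, or less than 0.5 times, that in the second and edgeR's quasi-likelihood test gave it p under 0.05 before adjustment. Genes averaging at least 1 FPKM were tested. The pairing by rat did not enter this fit or its intervals. Of the 9 genes, 6 could be tested and 3 (Tyms, Cdk1, Top2a) lay under that mean in all 3 comparisons. Calls were 0 of 6, where 0.642% of the 11219 genes tested were called. An unadjusted p under 0.05 was reached by 0 of 6 genes against 2.28% of all genes, and an adjusted p under 0.05 by 0 of 6 against 0% (0 genes of 11219). Of all genes, DESeq2 gave 5 with an adjusted p under 0.05 and limma on log2(FPKM + 1) gave 0. For the set, limma called 0 of 6 and DESeq2 called 0 of 5, since it gave no p for Rrm2. The highest values were those of Ccnb1, with a log2 fold change of 0.47 ± 0.35 (SE; 95% interval -0.33 to 1.27), and Mki67, with 0.37 ± 0.30 (interval -0.31 to 1.05). Pcna (0.16 ± 0.28, interval -0.48 to 0.80) and Mcm5 (0.03 ± 0.27, interval -0.57 to 0.64) had intervals that left out a 2-fold change in either direction. Birc5 stood at -0.10 ± 0.39 (interval -0.98 to 0.79), and this interval also left out a 2-fold change, narrowly on the lower side. Rrm2 had a ratio of 0.437 and a log2 fold change of -1.01 ± 0.79 (interval -2.80 to 0.78), which rested on rat 1. The median log2 fold change was 0.10 over the 6 genes and 0.00 over all genes tested.

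The 3 genes under the limit were compared by exact permutation of log2(FPKM + 1), two-sided, as were the others. Top2a differed by -0.10 (p = 0.714), Cdk1 by -0.10 (p = 0.743) and Tyms by -0.04 (p = 0.743, exact permutation, smallest possible 0.0286). The permutation p lay between 0.286 and 1.00 for all 9 genes. FPKM did not separate the 2 groups for any of the 9 genes, where it did so for 0.410% of the genes tested. Each sample was also left out in turn. Without rat 2 at Nampt+ status, Ccnb1 reached the smallest p possible (0.0286, exact permutation) with a difference of 0.42. The sample left out held the lowest Ccnb1 value of all, and the test ignored the pairing by rat. How many of all genes reach this p under the same removal was not counted. Without rat 1 at Nampt+ status, the edgeR log2 fold change of Ccnb1 was 0.12, against 0.47 with all samples. The Nampt+ sample of rat 2 was also the 1 with the lowest T cell marker sum, and the part of this in the values of Ccnb1 was not tested.

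Nampt++ samples were next compared with controls, to ask what differed at the early stage. Calls were 0 of 6 genes against 0.686% of all genes tested. An unadjusted p under 0.05 was reached by 0 of 6 genes against 1.57%, and an adjusted p under 0.05 by 0 of 6 against 0% (edgeR, 0 of 11219 genes, against 5 by DESeq2 and 0 by limma). Limma called 0 of 6 and DESeq2 0 of the 5 to which it gave a p, which left out Rrm2. For 5 of the genes the log2 fold change was close to 0. It was 0.00 ± 0.29 for Mcm5 (95% interval -0.67 to 0.67), 0.08 ± 0.30 for Pcna (-0.61 to 0.78), -0.12 ± 0.27 for Mki67 (-0.74 to 0.50), 0.18 ± 0.28 for Birc5 (-0.47 to 0.83) and -0.13 ± 0.33 for Ccnb1 (-0.89 to 0.63). All these intervals left out a 2-fold change. Rrm2 had a ratio of 3.19 and a log2 fold change of 1.54 ± 0.94 (interval -0.63 to 3.71), from the library of rat 1. Among the genes of low level, Tyms differed by 0.19 in log2(FPKM + 1), Cdk1 by 0.01 and Top2a by -0.03 (exact permutation p = 0.314, 0.914 and 0.800). The groups overlapped for all 9 genes, where 1.10% of the genes tested did not overlap.

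Nampt+ samples were also compared with controls. The 6 genes tested had log2 fold changes above 0, and 0 of 6 were called, against 0.497% of the genes tested. An unadjusted p under 0.05 was reached by 0 of 6 genes against 0.870%, and an adjusted p under 0.05 by 0 of 6 against 0% (edgeR, 0 of 11269 genes, against 4 by DESeq2 and 0 by limma). DESeq2 and limma called 0 of 6. Rrm2 had the highest log2 fold change, 0.52 ± 0.36 (95% interval -0.31 to 1.35), followed by Ccnb1 with 0.33 ± 0.39 (-0.56 to 1.22), Mki67 with 0.24 ± 0.30 (-0.44 to 0.92) and Pcna with 0.23 ± 0.34 (-0.56 to 1.02). Birc5 (0.08 ± 0.42) and Mcm5 (0.02 ± 0.24) were nearer to 0. The direction of 5 of the 6 genes turned when 1 Nampt+ sample was left out. Without rat 2 the log2 fold changes were -0.03 for Mki67, -0.02 for Pcna and -0.31 for Birc5, without rat 1 that of Ccnb1 was -0.04, and without rat 3 that of Mcm5 was -0.16. The median was 0.24 over the 6 genes and 0.00 over all genes tested. For Rrm2 the exact permutation p was 0.0571, and it was 0.229 for Tyms, 0.829 for Cdk1 and 0.686 for Top2a. The copy of Rrm2 did not share this difference, at -0.015 in log2(FPKM + 1) for Nampt+ against control samples (exact permutation p = 0.971). Rrm2 summed with its copy had an edgeR log2 fold change of 0.21, against 0.52 for Rrm2 alone. The groups overlapped for all 9 genes, where 0.444% of genes tested did not overlap. The 3 comparisons share samples, since each group entered 2 of them.

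**Figure D3:**
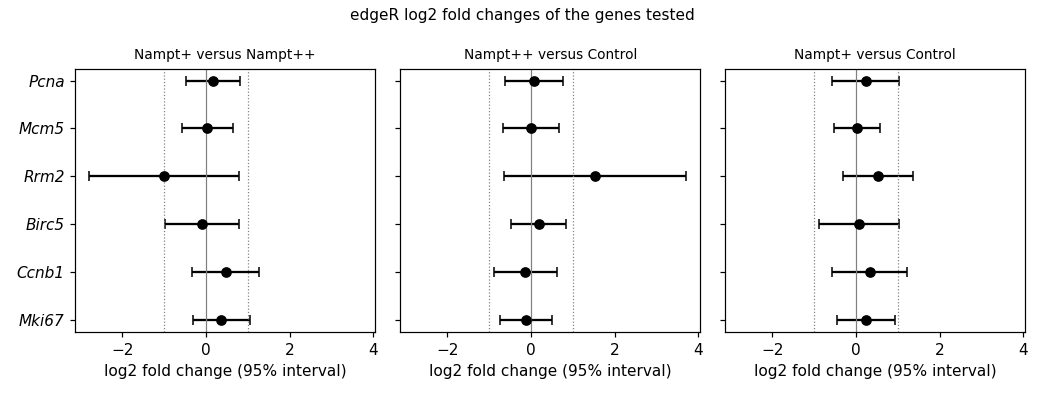
Log2 fold changes (edgeR, x axis) of the 6 genes tested in the 3 comparisons, with 95% intervals and dotted lines at -1 and 1. Every interval crosses 0, and those of Rrm2 are the widest in both comparisons with Nampt++ samples.

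Within rats, the change from Nampt++ to Nampt+ status was read gene by gene. A gene was compared by the difference in log2(FPKM + 1) in each rat, Nampt+ minus Nampt++. None of the 9 genes moved the same way in all 4 rats, where 1.26% of the genes tested were higher and 4.94% lower in all 4. With shares this small, none among 9 genes is near what all genes gave and is no trait of the set. In rats 1 to 4 the differences were 0.56, 0.04, 0.09 and -0.12 for Mki67 and 0.77, -0.51, 0.48 and 0.16 for Ccnb1, each higher in 3 of 4 rats. Cdk1 gave 0.45, -0.78, 0.10 and -0.18, and Top2a gave 0.57, -0.69, -0.03 and -0.24. In both, rat 1 had the highest and rat 2 the lowest difference. The differences were 0.53, -0.32, -0.14 and -0.22 for Tyms, 0.61, -0.65, 0.54 and -0.57 for Mcm5 and 0.02, -0.26, -0.02 and -0.65 for Birc5. Birc5 was close to 0 in rats 1 and 3. Pcna went the other way to most of the set in rats 1 and 2, with -0.60, 0.54, -0.02 and 0.23. Rrm2 gave -2.35, 0.21, 0.47 and 0.40, higher in 3 rats and lower in rat 1. The exact sign-flip permutation p over the 4 rats was lowest for Birc5 (0.250), and with 4 rats this test could not pass 0.05.

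Rats differed in how many genes were higher. Rat 1 had 7 of 9 genes higher at Nampt+ status, rat 2 had 3, rat 3 had 5 and rat 4 had 3. Of all genes tested, 51.4%, 21.4%, 72.1% and 49.4% were higher in rats 1 to 4. At Nampt++ status the haemoglobin share was 6.84%, 37.3%, 20.2% and 7.80% in rats 1 to 4, and at Nampt+ status 25.9%, 42.8%, 18.4% and 14.8%. FPKM is scaled to all reads, haemoglobin included, and the part of this in the differences was not tested.

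**Figure D4:**
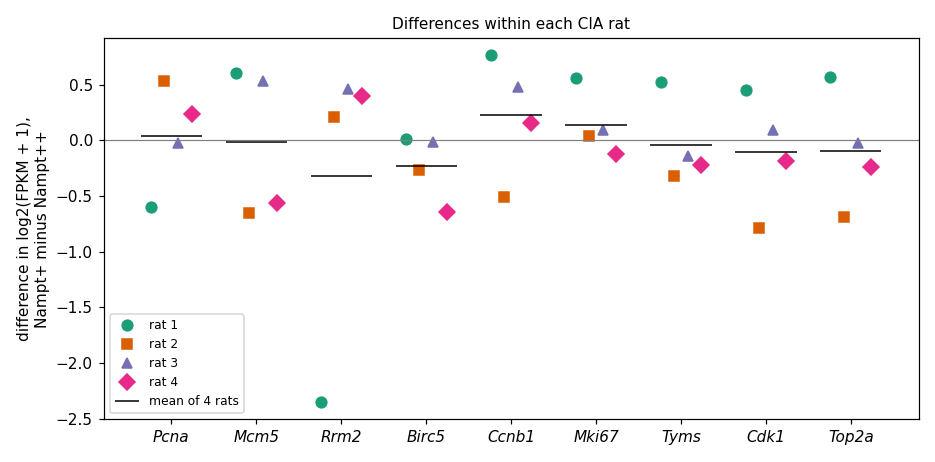
Difference in log2(FPKM + 1), Nampt+ minus Nampt++, for each of the 9 genes in each of the 4 CIA rats, with the mean as a black bar. Values lie on both sides of 0 for every gene, from -2.35 (Rrm2 in rat 1) to 0.77 (Ccnb1 in rat 1).

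Other genes of the cell cycle were read beside the set. Of 98 further genes in 4 lists, 96 had a row (E2f1 and Cdkn2d were not found and not analysed here). Levels differed by list. The brakes and quiescence genes had a median of 11.4 FPKM over their 16 genes, up to 851 FPKM for Btg1, an antiproliferative factor. The 28 replication and S phase genes had a median of 6.77 FPKM and the 12 G1 and G1/S control genes of 3.98 FPKM. The 40 G2 and mitosis genes had a median of 0.944 FPKM, with 18 of them at a mean of at least 1 FPKM. Genes of that list that stood high were Cdc25b (144 FPKM), a phosphatase that activates Cdk1, the chromatin protein Hmgb2 (117 FPKM) and Cks2 (99.2 FPKM), all named after their values were seen. The level of Cdc25b was not steady, with 38.9 FPKM in Nampt++ rat 4 and 306 FPKM in Nampt++ rat 2. The haemoglobin shares of these samples were 7.80% and 37.3%, and the part of this in its level was not tested.

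In Nampt+ against Nampt++ samples, 24 S phase, 8 G1, 19 G2 and mitosis, and 12 brake genes could be tested, and 1 of these 63 was called, where 0.642% of all genes tested were. Of the same lists, 1 of 63 was called in Nampt++ against control samples, where 0.686% of all genes were. The gene was the same in both, so that its values are given as those of a single gene. Ube2c, the ubiquitin-conjugating enzyme of the anaphase-promoting complex, was lowest in Nampt++ samples. It gave 2.28, 2.52 and 2.04 FPKM in controls, 0.771, 1.75, 0.968 and 1.04 FPKM in Nampt++ samples, and 3.31, 3.43, 1.47 and 1.34 FPKM in Nampt+ samples. Controls lay above all Nampt++ samples, while the CIA groups overlapped. It rose from Nampt++ to Nampt+ by a log2 fold change of 1.31 ± 0.57 (ratio 2.11, unadjusted p under 0.05). In Nampt++ against control samples it was also the only call of the 4 lists, and fell by 1.05 ± 0.42 on the log2 scale (ratio 0.496, unadjusted p under 0.05). After Benjamini-Hochberg adjustment over all genes tested, edgeR gave both an adjusted p of 1.00, so neither call held. The call in Nampt+ against Nampt++ was lost without any 1 of 3 Nampt++ samples (rats 1, 3 and 4) or without Nampt+ rats 1 or 2 (p from 0.0852 to 0.202), and the call against controls was lost without any 1 of control rats 1 and 2 or Nampt++ rats 1, 3 and 4 (p from 0.0710 to 0.144). In Nampt+ against control samples, 0 of 64 genes tested were called, where 0.497% of all genes were. The list medians of the log2 fold change ran from -0.15 to 0.10 over the 3 comparisons, with medians of 0.00 over all genes.

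**Figure D5:**
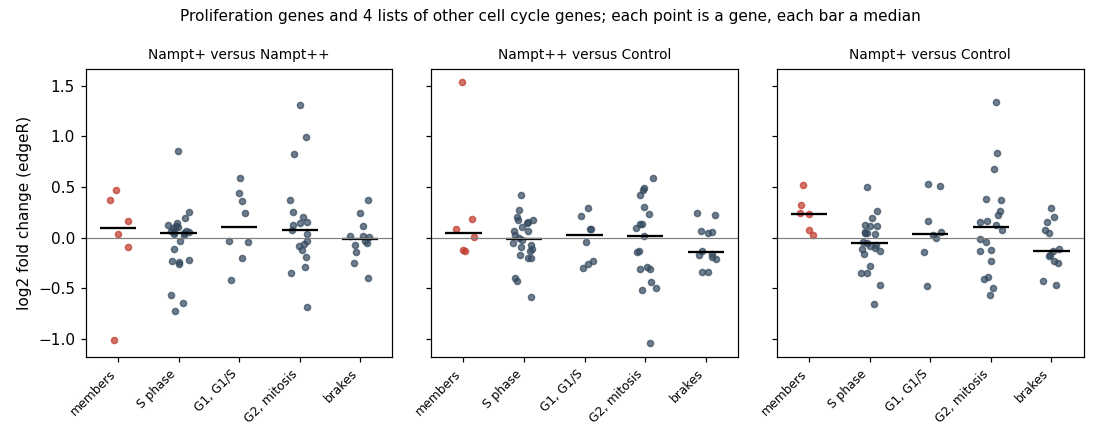
Log2 fold changes (edgeR, y axis) of the 6 proliferation genes tested (red) and of the genes tested in 4 lists of other cell cycle genes (dark), in the 3 comparisons, with 1 point per gene and bars for medians. List medians lie between -0.15 and 0.10, and the highest red point in the middle panel is Rrm2 at 1.54.

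Genes whose pattern over the 11 samples was most like the set were sought by Pearson's r of log2(FPKM + 1) with the mean of the z-scored members, as a description. The 10 most alike of 11236 genes were AABR07024742, Sh3tc1, AABR07045680, Phf21b, Mrps5, AABR07027799, Maob, Nfic, Eci2 and Ebna1bp2, with r of 0.947 for the first. None belonged to the cell cycle lists, but few of the genes compared did. Of the 11236, 24 were S phase, 18 G2 and mitosis, 8 G1 and G1/S and 12 brake genes. None among 10 is thus near the share over all genes. The median r was 0.49 over all genes compared, 0.64 over 24 S phase genes, 0.26 over 18 G2 and mitosis genes, 0.73 over 8 T cell markers, -0.25 over 10 erythroid and -0.53 over 5 mature neutrophil markers. It was 0.53 over 6 NK cell, 0.40 over 7 plasmablast and plasma cell and 0.36 over 3 progenitor markers. B cell (0.39), monocyte (0.42), platelet (0.04) and immature neutrophil (-0.51) markers were also below the median of all genes. G1 and G1/S genes had a median of 0.50 and brake genes of 0.44. The points share each library's scaling, in which haemoglobin reads take a changing share.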

How the data were processed

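Poly(A) RNA of peripheral WBCs was sequenced in paired-end reads. The authors deposited 1 table with, for each gene, whole-number counts (not normalized) and FPKM values, scaled by gene length and sample total. According to the submitters' processing notes, cutadapt 1.9, HISAT2 2.0.4 and StringTie 1.3.4 were used, and the genome build and the way shared reads were counted are not given in the sources used here. A deposited FPKM of 0.0001 was read as 0. Scaling to all reads makes FPKM move with the haemoglobin share.

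Counts were tested with edgeR 4.0.16 (quasi-likelihood test, TMM normalization, R 4.3.3) in pairs of groups, keeping genes that averaged at least 1 FPKM in the pair, with Benjamini-Hochberg adjustment over all genes tested. For single genes, group labels were permuted exactly on log2(FPKM + 1), two-sided. Alternatives used DESeq2 1.42.0, limma 3.58.1, other scalings, pseudocounts and filters, and left out each sample in turn. By the study's methods each CIA rat gave a Nampt++ and a Nampt+ sample, and the deviations of such pairs from group means correlated at -0.27, -0.24, 0.24 and 0.08 in rats 1 to 4. Nothing more is known of separate handling of the samples, so p-values measure the spread between these samples. Total counts were 65340027 to 85819418 per sample, so that the number of rats limits precision.

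The genes described are all members of the set, called genes of the 4 cell cycle lists (at most 4 of each direction), and the 10 genes most alike in pattern. Members, lists and tests were chosen with earlier results of these data known. Promoters are RefSeq's, build GRCr8, used for sequence and motif letters only.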

Additional observations from a re-analysis of the deposited data

Results flagged for a closer look

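In 18 groups of 4 samples (9 genes in 2 groups), the gap of the highest or lowest sample to its nearest neighbour was set against the range of the group, with a limit of 0.829. Of these, 2 passed the limit. It is meant to flag about 1 in 20 groups of independent, normally distributed values. The 9 genes were read in the same libraries and on untransformed FPKM, so the rate of chance flags here is not known. Rrm2 was far above the other Nampt++ samples in rat 1, with a gap of 0.991 of the range (23.3 FPKM, against 2.13 to 2.31 FPKM). Tyms was above the other Nampt+ samples in rat 1, with a gap of 0.837 of the range (1.25 FPKM, against 0.816 to 0.886 FPKM).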

How the results depend on the processing

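No member was called under any alternative tried, in any of the 3 comparisons, and of 414 recomputed member values 355 kept their direction and 59 did not. None of these values was called, and the cause was not tested. The reversals of Rrm2 were large and came with leaving out Nampt++ rat 1, from -1.01 to 0.65 in Nampt+ against Nampt++ and from 1.54 to -0.12 in Nampt++ against Control. Each group held 3 or 4 samples, and Cdk1 and Tyms had the lowest counts of the set. With the rat as a replicate block, 0 members were called in Nampt+ against Nampt++, the log2 fold change of Rrm2 was -0.10, and Ube2c kept its call in edgeR (log2 fold change 1.10) and lost it in limma, where 0 other cell cycle genes were called. Mcm5 was at -0.018 in limma with and without the block, and at 0.061 in edgeR with it. The block changed no call of a member. DESeq2 gave no p for Rrm2 in the comparisons with Nampt++ samples.

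In Nampt+ against Nampt++, Mcm5 was at -0.018 and -0.028 in limma with a pseudocount of 1 and 0.1. Rrm2 summed with its copy, without rat 1 at Nampt++ status, was at 0.38. Tyms was at 0.022 with FPKM scaled to reads outside haemoglobin genes. In Nampt++ against Control, Mcm5 was at -0.044 with upper quartile scaling and -0.00046 in limma with a pseudocount of 0.1, Rrm2 with its copy and without rat 1 at -0.16, and Cdk1 at -0.056 outside haemoglobin. In Nampt+ against Control, Mcm5 was at -0.0105 and -0.029 and Birc5 at -0.084 and -0.11 in limma with a pseudocount of 1 and 0.1, and Ube2c at -0.014 and -0.053. Within rats, log2 CPM gave 0.0087 for Tyms and 0.033 for Mcm5.

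Leaving out 1 sample at a time gave ranges of the log2 fold change in Nampt+ against Nampt++ of -1.37 to 0.65 for Rrm2, -0.16 to 0.14 for Mcm5, -0.48 to 0.13 for Birc5, 0.12 to 0.66 for Ccnb1 and -0.087 to 0.33 for Pcna. By permutation the differences ran from -0.20 to 0.10 for Cdk1, -0.26 to 0.073 for Top2a and -0.16 to 0.036 for Tyms, and 0 to 1 member reached p under 0.05 (Rrm2 without Nampt++ rat 1, Ccnb1 without Nampt+ rat 2). The share of all genes that reached it under the same removals was not counted. In Nampt++ against Control the ranges were -0.23 to 0.051 for Mki67, -0.12 to 1.86 for Rrm2, -0.13 to 0.19 for Mcm5, -0.16 to 0.30 for Pcna, -0.13 to 0.11 for Cdk1 and -0.14 to 0.035 for Top2a. In Nampt+ against Control they were -0.032 to 0.37 for Mki67, -0.041 to 0.43 for Ccnb1, -0.16 to 0.19 for Mcm5, -0.31 to 0.30 for Birc5, -0.024 to 0.45 for Pcna, -0.23 to 0.11 for Cdk1, -0.28 to 0.048 for Top2a and -0.38 to 0.55 for Ube2c. Within rats, leaving out 1 rat gave -0.32 to 0.10 for Top2a, -0.29 to 0.12 for Cdk1, -0.23 to 0.054 for Tyms, -0.58 to 0.36 for Rrm2, -0.23 to 0.19 for Mcm5 and -0.13 to 0.25 for Pcna, and 0 to 4 members kept 1 direction in the 3 remaining rats, with 4 without rat 1. A common direction is easier to reach in 3 rats than in 4. The share of all genes that kept 1 direction in 3 rats was not counted, so these counts are no result about the set.

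Calls among other cell cycle genes moved from 1 to 2 without the FPKM filter in both comparisons with Nampt++ samples, and from 0 to 1 in Nampt+ against Control. They were 0 with a mean of at least 10 FPKM in both comparisons with Nampt++, 0 without haemoglobin genes (Ube2c then at a log2 fold change of 1.297, against 1.31) or in limma with a pseudocount of 1 in Nampt+ against Nampt++, and 0 with all groups in 1 fit in Nampt++ against Control. Leaving out 1 sample gave 0 to 3, 0 to 4 and 0 to 1 calls in the 3 comparisons. The sum with the copy, the scaling outside haemoglobin genes and all alternatives for other cell cycle genes were chosen after seeing the data.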
